A study of Mus musculus with 36 samples.

Results

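Whether the 24 h change of glioma cells given myelin differs in the presence of macrophages was read from 12 of the 36 libraries of the series, all of them from tumour cells. The cells were the recurrent PDG-Ink4a line, grown from a mouse glioma driven by platelet-derived growth factor B in an Ink4a/Arf-null background. The 4 groups of 3 libraries were co-cultured cells 24 h after myelin debris was added, co-cultured cells at 0 h (the control), mono-cultured cells at 24 h and mono-cultured cells at 0 h. The partner in co-culture was bone-marrow derived macrophages, and the tumour cells were purified by flow cytometry before RNA was taken. All libraries were made from a few nanograms of RNA by oligo-dT priming and template switching. The quantity of interest is the 24 h change in co-culture minus the 24 h change in mono-culture, called the culture difference below.

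All cells are of 1 line. Separate cultures behind the 3 libraries of each group are not stated in the labels. The p-values of the fits measure the spread that remains between these libraries once their number, described below, is a block. This spread may be technical. How long the 0 h cultures were kept is not stated either, and the effects of myelin and of time in culture cannot be told apart. Libraries carry the numbers 001 to 003. Libraries with the same number deviated together (correlations of residuals 0.353 to 0.847), and the number was a block in the fits. Total counts ran from 11574383 to 14333204 per library. In bulk RNA, fewer cells of a kind and less RNA per cell cannot be told apart.

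Myelin is the lipid-rich sheath of axons. Its debris is taken up by phagocytes, which break it down in lysosomes and pass the cholesterol to LXR receptors and to exporters such as ABCA1. Dividing cells transcribe replication genes under E2F factors at the start of S phase, and a later set of mitotic genes through a promoter element called CHR. Type I interferon induces yet another set of genes through elements called ISRE. In gliomas, growth factor signalling drives division, and macrophages are the most common immune cells.

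Several measurements of the libraries bear on what follows. Of the fixed glioma markers, Vim (3170 to 4590 CPM, counts scaled by the total of the library), Cd44 (611 to 2810), Cspg4 (393 to 967), Pdgfra (110 to 194) and Sox2 (15.7 to 26.2) were present in the 12 libraries, Nes lay between 8.9 and 40.4 CPM, Olig1 was at 0 and Sox10 reached 0.0826 CPM. Mono-cultured macrophages at 0 h averaged 3120 CPM of Vim, 736 CPM of Cd44 and 63 CPM of Nes. They averaged 17.8 CPM of Cspg4, 0.3 CPM of Pdgfra and 0 CPM of Sox2. Vim, Cd44 and Nes were thus not particular to the tumour cells. The libraries of number 001 stood apart in the share of their counts in the transcript CT010467.1. In co-culture it was 2.13% at 24 h and 3.23% at 0 h, and in mono-culture 2.99% at 24 h and 13.4% at 0 h. Libraries 002 and 003 held 0.309 to 0.641%. The summed level of 21 macrophage markers was 36.5 to 1798 CPM in co-culture at 24 h, 28.3 to 2141 CPM in co-culture at 0 h, 21.4 to 2335 CPM in mono-culture at 24 h and 17.1 to 467 CPM in mono-culture at 0 h, and number 001 was the lowest of every group. Mono-culture held no macrophages by its label, yet its libraries 002 and 003 had 1812 and 2335 CPM of these markers at 24 h, against 352 and 467 CPM at 0 h. Genes whose CPM in mono-cultured macrophages at 0 h exceeded that in mono-cultured tumour cells at 0 h by more than 20 times were fitted with the rest and then set aside.

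Tumour cells changed between 0 h and 24 h in both cultures, and fewer genes passed in co-culture. The threshold for a call was 0.05 for the p of edgeR's quasi-likelihood test, adjusted after Benjamini and Hochberg over 13352 genes, of which 408 were then set aside. Of the other 12944 genes, 1652 were called in co-culture (12.8%; 782 higher, 6.04%, and 870 lower, 6.72%, at 24 h) and 3890 in mono-culture (30.1%; 1719 higher, 13.3%, and 2171 lower, 16.8%). A count of calls does not test the difference between cultures. The culture difference itself was called for 28 genes (0.216%), 13 with a more positive change in co-culture (0.1%) and 15 with a more negative one (0.116%). At an unadjusted p under 0.05 there were 824 more positive (6.37%) and 437 more negative genes (3.38%). With the genes set aside included there were 137 calls (1.03%), 13 higher (0.0974%) and 124 lower (0.929%). The 28 calls depend on the block, on the macrophage genes fitted and adjusted with them, and on single libraries. With the macrophage genes removed before the fit there were 3 calls, 1 higher (Tubb3) and 2 lower. There were 0 without the block, 281 without co-culture library 001 at 24 h, 99 without mono-culture library 001 at 0 h, and 0 without library 003 of either culture at 24 h.

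The 13 genes with a positive culture difference all fell in mono-culture. Of the 13, 7 were called higher in co-culture than in mono-culture at 24 h, and the other 6 were called lower in co-culture at 0 h. Tubb3, of the 7, was also called higher in co-culture at 0 h. This division was made after the values were seen. Among the 12944 genes not set aside, 1010 were called between the cultures at 24 h (7.8%; 659 higher, 5.09%, and 351 lower, 2.71%, in co-culture) and 162 at 0 h (1.25%; 62 higher, 0.479%, and 100 lower, 0.773%). With the genes set aside included, 330 were called at 0 h, 230 higher and 100 lower in co-culture. None of the 13 had a level over 20 times higher in any macrophage group than in mono-cultured tumour cells.

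**Figure D1:**
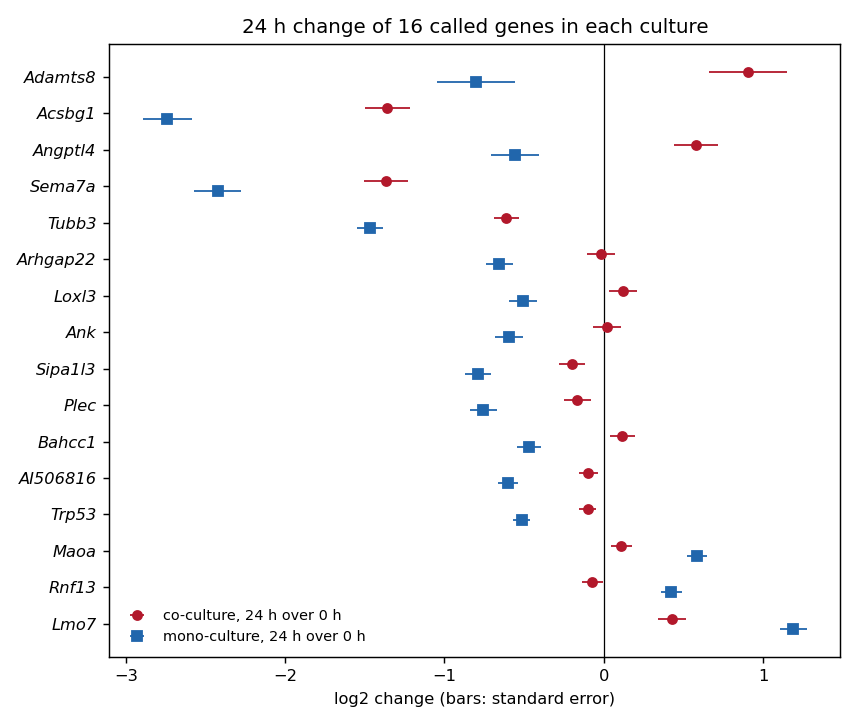
Log2 change from 0 h to 24 h (horizontal axis) of 16 called genes that are not macrophage genes, in co-culture (red circles) and mono-culture (blue squares), with standard errors from the fit. The upper 13 genes lie below 0 in mono-culture, and the lower 3 lie above 0 there.

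Among the 7 genes, Tubb3, the class III beta-tubulin used as a marker of neurons (chromosome 8, 123411424 to 123422015 in mm10), had the lowest adjusted p for a positive difference. Its levels were 83.4, 140.5 and 150.3 CPM (libraries 001, 002 and 003, here and below, after TMM normalisation) in co-culture at 24 h and 133.5, 216.6 and 216.8 CPM in co-culture at 0 h. In mono-culture they were 36.1, 63.5 and 64.2 CPM at 24 h and 87.3, 177.9 and 196.3 CPM at 0 h. Every mono-culture library at 24 h lay below every other library of the 12. Tubb3 fell in both cultures, by 0.61 ± 0.08 on the log2 scale in co-culture and by 1.47 ± 0.08 in mono-culture, and the culture difference was 0.86 ± 0.11 (edgeR quasi-likelihood, adjusted p = 0.00587). By library number it was 0.59, 0.86 and 1.08. Co-culture was the higher one at 24 h, by 1.19 ± 0.08 (adjusted p = 0.000144 by the same test), and already at 0 h, by 0.34 ± 0.08 (adjusted p = 0.0478).

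Sema7a, a membrane-anchored semaphorin that guides axons and signals through integrins (chromosome 9, 57940112 to 57962865), showed a larger fall. It stood at 28.1, 185.8 and 157.5 CPM in co-culture at 24 h, against 70.7, 485 and 413 CPM in co-culture at 0 h. In mono-culture the levels were 19.3, 73.0 and 66.4 CPM at 24 h, against 77.5, 415 and 417 CPM at 0 h. Number 001 was far below the others in all groups, and within each number the co-culture library was the higher one at 24 h. The change was -1.37 ± 0.14 in co-culture and -2.42 ± 0.15 in mono-culture, with a culture difference of 1.06 ± 0.20 (edgeR quasi-likelihood, adjusted p = 0.0384).

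A pair of these genes handle fatty acids. Acsbg1, an acyl-CoA synthetase that activates long fatty acids (chromosome 9, 54604877 to 54661870), had 2.03, 9.50 and 7.97 CPM in co-culture at 24 h and 7.84, 21.2 and 19.1 CPM in co-culture at 0 h. Its mono-culture levels were 1.39, 3.92 and 4.01 CPM at 24 h and 9.77, 26.9 and 25.3 CPM at 0 h. It fell in both cultures, and the fall was smaller in co-culture (culture difference 1.38 ± 0.21, edgeR quasi-likelihood adjusted p = 0.012).

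Angptl4, a secreted inhibitor of lipoprotein lipase (chromosome 17, 33773750 to 33781830), moved in opposite directions. The gene was at 5.92, 20.4 and 23.2 CPM in co-culture at 24 h and at 4.57, 15.0 and 12.9 CPM in co-culture at 0 h. Mono-cultured cells had 2.69, 9.07 and 10.2 CPM at 24 h and 2.96, 14.8 and 15.3 CPM at 0 h. It rose by 0.58 ± 0.14 in co-culture and fell by 0.56 ± 0.15 on the log2 scale in mono-culture, and the 24 h and 0 h libraries of either culture overlapped, with number 001 low throughout. The culture difference was 1.13 ± 0.21 (edgeR quasi-likelihood, adjusted p = 0.0265).

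Adamts8, a secreted metalloprotease, had the largest positive difference of the 13 (1.71 ± 0.35, edgeR quasi-likelihood adjusted p = 0.0438), at low levels of 0.486 to 4.92 CPM in co-culture at 24 h and 0.163 to 2.77 CPM in mono-culture at 24 h. Trp53, the tumour suppressor p53, was at 135.1, 171.6 and 163.8 CPM in co-culture at 24 h and at 100.3, 115.5 and 114.1 CPM in mono-culture at 24 h, with no overlap. At 0 h it was at 148 to 180.3 CPM in co-culture and 134 to 169.5 CPM in mono-culture, and its culture difference was 0.41 ± 0.08 (edgeR quasi-likelihood, adjusted p = 0.028). Of 15 tested p53 target genes 0 were called for the culture difference by edgeR's quasi-likelihood test and 1 had an unadjusted p under 0.05, with a median of 0.08. The non-coding transcript AI506816 had a difference of 0.50 ± 0.08 and also no overlap between cultures at 24 h.

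**Figure D2:**
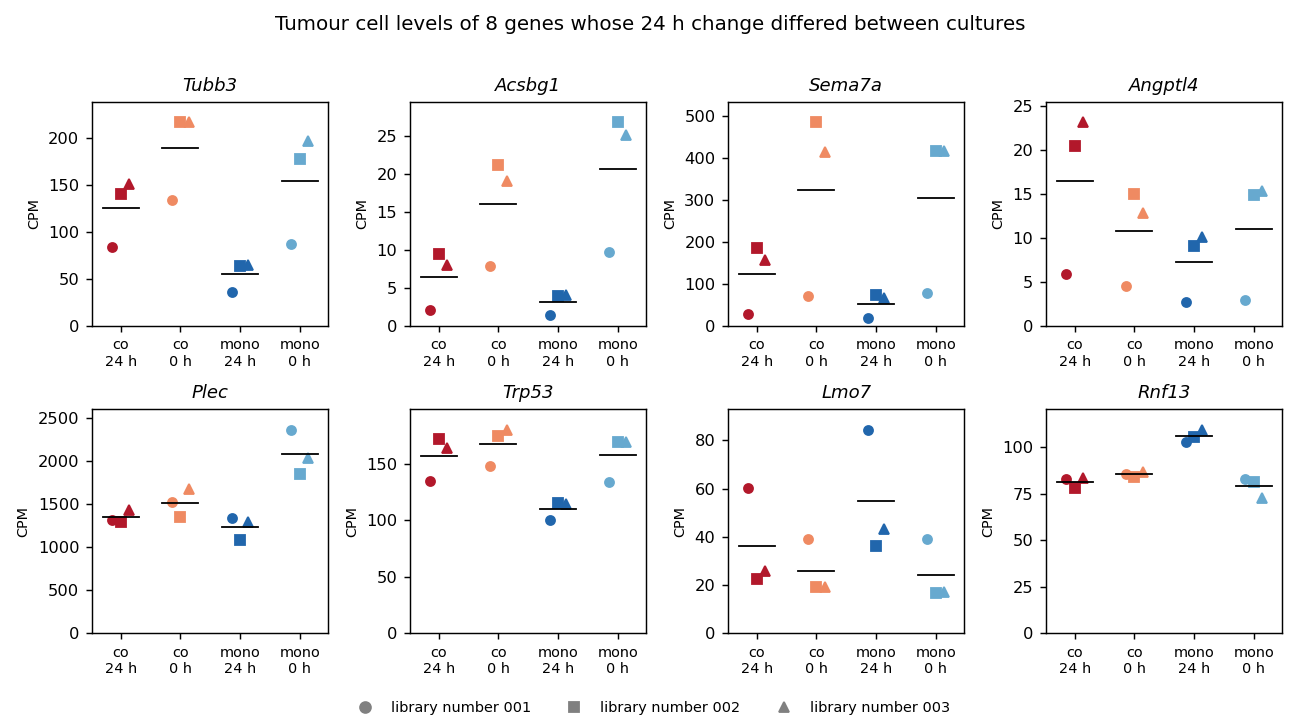
Levels in CPM (vertical axes from 0) of 8 called genes in co-culture at 24 h, co-culture at 0 h, mono-culture at 24 h and mono-culture at 0 h; symbols give the library number and black lines the group means. Tubb3 and Trp53 are lowest in mono-culture at 24 h, Plec is highest in mono-culture at 0 h, and Rnf13 is highest in mono-culture at 24 h.

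The 6 genes of the other kind were lower in co-culture than in mono-culture at 0 h, and none of them was called between cultures at 24 h. Plec, the cytolinker plectin that ties intermediate filaments to junctions (chromosome 15, 76170974 to 76232574), was at 1320, 1296 and 1437 CPM in co-culture at 24 h and 1525, 1358 and 1681 CPM in co-culture at 0 h. In mono-culture it was at 1340, 1084 and 1290 CPM at 24 h, against 2370, 1855 and 2040 CPM at 0 h. The mono-culture libraries at 0 h lay above all others, and the culture difference was 0.59 ± 0.12 (edgeR quasi-likelihood, adjusted p = 0.044).

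Bahcc1, a chromatin protein that binds a repressive histone mark, was also highest in mono-culture at 0 h. It averaged 78.7 ± 7.2 CPM in co-culture at 24 h and 72.3 ± 2.6 CPM in co-culture at 0 h, and 77.9 ± 11.3 CPM in mono-culture at 24 h and 107.7 ± 12.5 CPM in mono-culture at 0 h (SD, n = 3 each). The other 4 genes were Loxl3, which crosslinks collagen (culture difference 0.63 ± 0.12), Arhgap22, a regulator of Rac (0.64 ± 0.12), Ank, which exports pyrophosphate (0.61 ± 0.12), and Sipa1l3, a regulator of Rap (0.59 ± 0.12). At 0 h Loxl3 averaged 379.9 CPM in co-culture and 545 CPM in mono-culture, Arhgap22 74.9 CPM in co-culture and 98.5 CPM in mono-culture, Ank 787 CPM in co-culture and 1242 CPM in mono-culture, and Sipa1l3 126 CPM in co-culture and 159 CPM in mono-culture. At 0 h the cultures did not overlap for Plec and Bahcc1, and they overlapped for the other genes of the 13. The share of all genes without overlap was not computed, here or where overlap is given for other genes.

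Of the 15 genes with a negative culture difference, 4 were not over 20 times higher in any macrophage group than in mono-cultured tumour cells at 0 h. These 4 are counted as not macrophage genes, and 3 of them are described here. Lmo7, a LIM domain protein of cell junctions (chromosome 14, 101729957 to 101934710), was at 60.3, 22.4 and 25.7 CPM in co-culture at 24 h and 39.1, 19.3 and 19.3 CPM in co-culture at 0 h. Mono-cultured cells had 84.5, 36.4 and 43.4 CPM at 24 h and 39.0, 16.6 and 17.3 CPM at 0 h. Within each number mono-culture at 24 h was the highest, and the difference was -0.76 ± 0.12 (edgeR quasi-likelihood, adjusted p = 0.015).

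Rnf13, a ubiquitin ligase of endosomes and lysosomes, was at 83.1, 78.1 and 83.5 CPM in co-culture at 24 h and 85.8, 84.2 and 86.8 CPM in co-culture at 0 h, and at 102.8, 105.6 and 109.6 CPM in mono-culture at 24 h and 82.7, 81.3 and 72.9 CPM in mono-culture at 0 h. The mono-culture libraries at 24 h lay above all 9 others, with a difference of -0.50 ± 0.09 (edgeR quasi-likelihood, adjusted p = 0.0265). Mono-cultured macrophages at 0 h averaged 271 CPM of Rnf13, 3.6 times the level of mono-cultured tumour cells at 0 h. The part of macrophage RNA in its difference was not tested. Maoa, the mitochondrial monoamine oxidase, had a difference of -0.48 ± 0.09. Lmo7 rose in both cultures. Rnf13 and Maoa rose in mono-culture and had adjusted p of 0.284 or higher in co-culture by edgeR's quasi-likelihood test.

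The remaining 11 of the 15 were more than 20 times higher in some macrophage group than in mono-cultured tumour cells at 0 h. So were all 109 called genes that were set aside, by the rule that set them aside. All these differences were negative. Mono-cultured tumour cells at 0 h enter both this ratio and the culture difference. Choosing genes that are low there favours a negative sign, so the shared sign is a description. The 11 were Icosl, C1qc, C1qa, Stab1, Siglec1, Hpgd, Fcrls, Tnfsf9, Ms4a14, Fcgr2b and Cd300lf. Fcgr2b, an inhibitory Fc receptor, was at 0, 10.65 and 10.28 CPM in co-culture at 24 h and 0.259, 15.7 and 10.69 CPM in co-culture at 0 h. In mono-culture it was at 0.0815, 14.3 and 18.5 CPM at 24 h and 0, 1.91 and 3.24 CPM at 0 h. Libraries 002 and 003 of mono-culture at 0 h were thus the lowest of their numbers (difference -3.05 ± 0.41, edgeR quasi-likelihood adjusted p = 0.00683).

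Complement C1q genes, which macrophages express, gave the same picture, with differences of -2.12 ± 0.38 for C1qa, -2.06 ± 0.38 for C1qb and -2.09 ± 0.37 for C1qc, and so did the myeloid receptor parts Itgam (-2.78 ± 0.30), Fcer1g (-2.58 ± 0.29) and Tyrobp (-2.51 ± 0.31). Of 22 macrophage markers tested 14 were called, all lower, where 0.929% of all genes were. The summed level of the 21 markers averaged 1189 ± 998.5 CPM in co-culture and 1389 ± 1213 CPM in mono-culture at 24 h, and 1195 ± 1073 CPM in co-culture and 279 ± 234 CPM in mono-culture at 0 h (SD, n = 3 each). An exact two-sided permutation test over libraries gave p = 0.7 at 24 h and 0.3 at 0 h (adjusted 0.7 and 0.6), where 3 libraries against 3 cannot go below 0.1. At 0 h the mono-cultured macrophages of numbers 002 and 003 carried 828 and 1240 CPM of Xist, the RNA of the inactive X chromosome, and those of number 001 carried 0. Of the Y chromosome gene Ddx3y those of number 001 carried 61.6 CPM, and those of numbers 002 and 003 carried 0. Macrophages of number 001 thus differed from the others in both RNAs. Tumour cell libraries held at most 0.991 CPM of Xist, while at the share given by their macrophage markers those of numbers 002 and 003 would hold 12.7 to 126 CPM. The part of macrophage RNA in the results of the tumour cell genes was not tested.

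**Figure D3:**
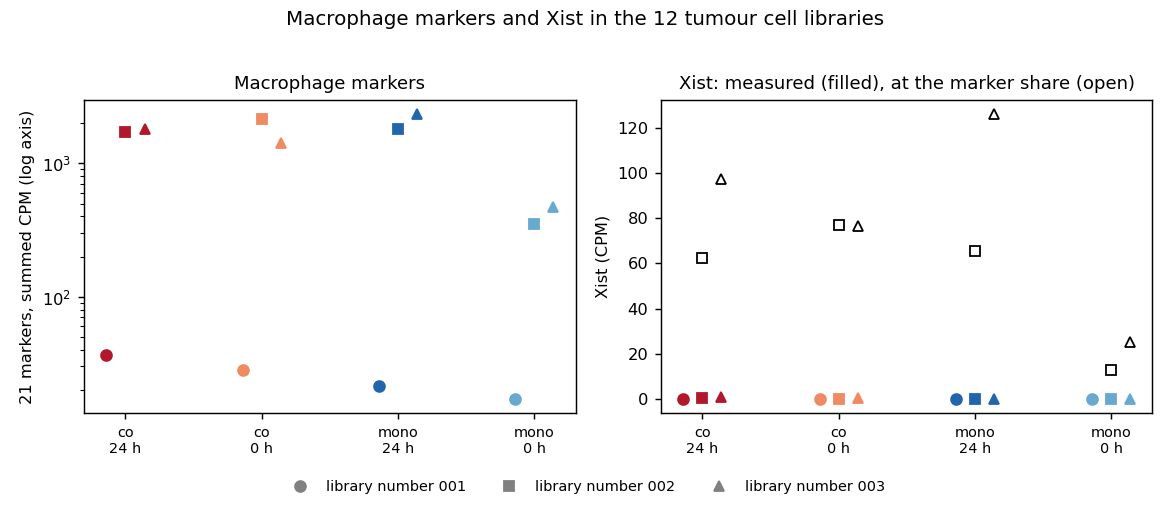
Left, summed CPM of 21 macrophage markers on a log axis in each of the 12 tumour cell libraries; right, Xist in CPM as measured (filled symbols) and as the product of the library's marker share and the Xist level of mono-cultured macrophages of the same number at 0 h (open symbols, numbers 002 and 003). Number 001 has the fewest marker counts in every group, and measured Xist stays at or below 0.991 CPM.

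Cell cycle genes showed the most even signs of the culture difference across library numbers among the lists, although no single member passed for it by edgeR. Of 25 S phase genes 23 fell in mono-culture, where 16.3% of all genes fell. In co-culture 0 were called by edgeR's quasi-likelihood test and 3, all lower, by DESeq2, with 6 lower at an unadjusted p under 0.05 (14.5% of genes not set aside). At 24 h, 15 of the 25 were higher in co-culture than in mono-culture by edgeR (4.94% of all genes) and 24 by DESeq2. For the culture difference 0 were called by edgeR's quasi-likelihood test and 4 by DESeq2, 19 had a positive difference at an unadjusted p under 0.05, and the median was 0.84, against 0.01 over all genes tested. The difference was positive in all 3 library numbers for 24 of the 25 genes, where this held for 24.6% of genes (and 17% were negative in all 3). Genes of a list vary together, and these counts are a description.

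Promoters of the cell cycle genes are shown because the members of each list moved together in sign, with the motif letters in capitals. The E2F motif was searched as TTTGGCGC or TTTCCCGC and the CHR motif as TTTGAA, on both strands of the 250 bases before each RefSeq start. The 180 bases before the start, in the direction of transcription on GRCm38.p6 (the assembly of mm10), are those of the replication helicase genes Mcm5 (chr8:75109329-75109508, plus strand) and Mcm6 (chr1:128359706-128359885, minus strand), and of the mitotic genes Cdc20 (chr4:118437344-118437523, minus strand) and Top2a (chr11:99024190-99024369, minus strand), the members with the lowest p for the culture difference among those with a motif there.
Mcm5: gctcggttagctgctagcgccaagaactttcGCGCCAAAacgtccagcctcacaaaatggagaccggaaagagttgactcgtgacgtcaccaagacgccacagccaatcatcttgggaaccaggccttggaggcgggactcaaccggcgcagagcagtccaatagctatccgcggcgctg
Mcm6: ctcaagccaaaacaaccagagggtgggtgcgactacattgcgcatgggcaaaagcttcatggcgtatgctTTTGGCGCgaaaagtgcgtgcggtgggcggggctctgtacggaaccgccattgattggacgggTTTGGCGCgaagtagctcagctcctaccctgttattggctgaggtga
Cdc20: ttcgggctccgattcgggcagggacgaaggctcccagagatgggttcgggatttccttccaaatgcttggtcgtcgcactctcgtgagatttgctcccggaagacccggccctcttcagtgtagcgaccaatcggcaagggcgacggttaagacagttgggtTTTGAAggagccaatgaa
Top2a: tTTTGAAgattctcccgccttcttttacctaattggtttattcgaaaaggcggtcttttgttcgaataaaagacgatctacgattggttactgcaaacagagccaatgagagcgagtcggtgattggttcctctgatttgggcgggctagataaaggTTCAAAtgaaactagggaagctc
An E2F motif was found for 4 of 20 S phase genes with a promoter entry, against 1.3% of all 32851 windows and 2.88% of tested genes with an entry. A CHR motif was found for 7 of 20 G2 and mitosis genes, against 16% of windows and 12.8% of tested genes. A match is a description of the letters and not a binding site.

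Mcm5, a subunit of the replicative helicase, was at 52.1, 89.5 and 80.4 CPM in co-culture at 24 h and 82.8, 101.6 and 89.0 CPM in co-culture at 0 h. Mono-cultured cells had 36.6, 33.3 and 29.4 CPM at 24 h and 113.7, 69.7 and 78.8 CPM at 0 h. All mono-culture libraries at 24 h lay below all co-culture libraries at 24 h, and co-culture was higher at that time by 1.16 ± 0.24 (edgeR quasi-likelihood, adjusted p = 0.0287). The culture difference of 1.10 ± 0.33 had an adjusted p of 0.232 by the same test.

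Mcm6, a further helicase subunit, was at 106.6, 157.8 and 131.8 CPM in co-culture at 24 h, against 85.3, 83.5 and 73.2 CPM in mono-culture at 24 h, with no overlap, and its culture difference was 0.57 ± 0.21 (adjusted p = 0.337 by edgeR's quasi-likelihood test). Ccne1, the cyclin that starts S phase, had the lowest p for the culture difference in the list (0.84 ± 0.21, edgeR quasi-likelihood adjusted p = 0.112). Its levels were 20.5, 40.6 and 36.1 CPM in co-culture at 24 h, against 14.7, 19.1 and 15.8 CPM in mono-culture at 24 h. E2f1, the factor itself, was at 50.1 to 57.6 CPM in co-culture at 24 h and 48.2 to 50.4 CPM in mono-culture at 24 h, with a difference of 0.09 ± 0.13.

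Over the 25 genes, the summed level was 945.6, 1563 and 1411 CPM in co-culture at 24 h and 1407, 1832 and 1698 CPM in co-culture at 0 h. In mono-culture it was 747, 767 and 689 CPM at 24 h and 1823, 1323 and 1389 CPM at 0 h. At 24 h the cultures did not overlap, and at 0 h they did.

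G2 and mitosis genes behaved alike in the sign of the difference, with a median culture difference of 1.12 over 24 genes. All 24 were positive in every library number, 16 had an unadjusted p under 0.05 and 0 were called by edgeR's quasi-likelihood test or by DESeq2. Between cultures at 24 h edgeR called 0 of the 24, and DESeq2 called more, as given below. The numbers differed within co-culture, where the summed level fell from 1546 to 1083 CPM in 001. It rose from 1062 to 1635 CPM in 002 and from 944 to 1254 CPM in 003. In mono-culture the sum fell in each number, from 2323 to 886, 798 to 667 and 835 to 524.5 CPM. In mono-culture 7 of the 24 fell by edgeR (15 by DESeq2), where 16.3% of all genes fell by edgeR. In co-culture 0 were called by edgeR or by DESeq2, and 0 had an unadjusted p under 0.05. Top2a, the topoisomerase that untangles chromosomes, was at 171, 245 and 203 CPM in co-culture at 24 h and 249.5, 191.9 and 163.5 CPM in co-culture at 0 h. It was at 129, 94.1 and 75.7 CPM in mono-culture at 24 h and 366, 133 and 138 CPM in mono-culture at 0 h. Mono-culture library 001 at 0 h was the highest of the 12, and the culture difference was 1.12 ± 0.42 (edgeR quasi-likelihood, adjusted p = 0.345). Cdc20, which activates the complex that ends mitosis, was at 33.6, 51.7 and 40.2 CPM in co-culture at 24 h, against 30.5, 19.5 and 16.1 CPM in mono-culture at 24 h, with no overlap, and had a difference of 1.17 ± 0.44 (adjusted p = 0.342 by the same test). The proliferation marker Mki67 was at 130.2, 219 and 154 CPM in co-culture at 24 h and 108.5, 97.1 and 80.2 CPM in mono-culture at 24 h, with a difference of 1.01 ± 0.52 (adjusted p = 0.505 by the same test).

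The median differences by library number were 0.76, 0.59 and 0.83 for S phase genes and 0.90, 0.89 and 1.10 for G2 and mitosis genes. With the 4 libraries numbered 001 left out, 22 genes of each list were called higher for the culture difference, and with number 002 or 003 left out 0 were. Among all genes not set aside, 589 were called higher without number 001, and 0 without number 002 or 003. At 6 h, in a comparison that shares the 0 h libraries, the median culture difference was 0.19 for S phase and 0.20 for G2 and mitosis genes. Of 13603 genes 0 (0%) were called at 6 h by edgeR's quasi-likelihood test, with 482 at an unadjusted p under 0.05 (3.54%), and 0 by DESeq2.

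**Figure D4:**
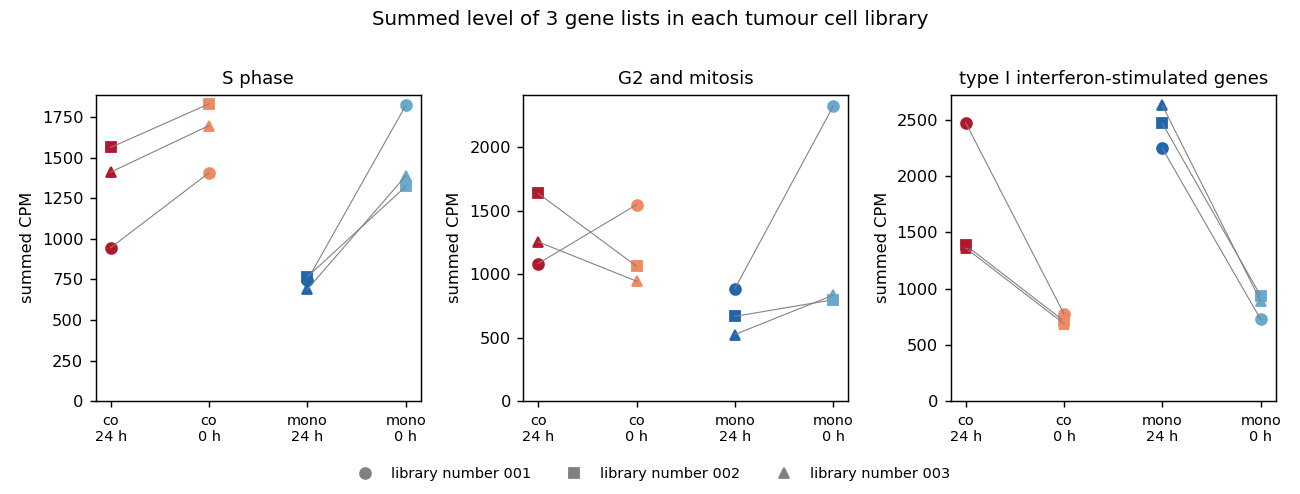
Summed CPM (vertical axes from 0) of 25 S phase genes, 24 G2 and mitosis genes and 30 type I interferon-stimulated genes in each library, with lines joining 24 h and 0 h libraries of the same number and culture. The S phase sum is lowest in the 3 mono-culture libraries at 24 h, and mono-culture library 001 at 0 h has the highest mitotic sum.

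Genes of ribosome biogenesis, the assembly of ribosomes in the nucleolus, fell in both cultures. All 24 tested fell in mono-culture (16.3% of all genes) and 19 in co-culture (6.65% of all genes). At 24 h, 19 were higher in co-culture than in mono-culture (4.94% of all genes). The median change was -0.40 in co-culture and -0.66 in mono-culture. For the culture difference 0 of the 24 were called by edgeR's quasi-likelihood test or by DESeq2 and 6 had an unadjusted p under 0.05, with a median of 0.25. Nolc1, a nucleolar chaperone, fell by 0.42 on the log2 scale in co-culture and by 0.73 in mono-culture. Myc, a driver of this programme, fell by 0.75 in co-culture and by 1.17 in mono-culture, with a culture difference of 0.42 (edgeR quasi-likelihood, adjusted p = 0.23). Of 11 tested genes of D cyclins, their kinases and inhibitors and Myc factors, 4 rose and 3 fell in co-culture (5.92% and 6.65% of all genes). In mono-culture 2 of the 11 rose and 5 fell (14.9% and 16.3% of all genes). Cdkn1b, the inhibitor p27, rose by 0.55 in co-culture and by 0.83 in mono-culture.

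Interferon-stimulated genes rose in both cultures. Of 30 type I genes 26 rose in co-culture, where 5.92% of all genes rose, and 29 in mono-culture, where 14.9% did, with median changes of 1.63 in co-culture and 1.94 in mono-culture. All 13 interferon-induced GTPase genes tested rose in both. For the culture difference 0 of the 30 were called by edgeR's quasi-likelihood test or by DESeq2, and 1 (Rsad2, at 1.31 ± 0.47) had an unadjusted p under 0.05, with a positive sign. The median culture difference of the 30 was negative, at -0.32, with 25 genes below 0, and was 0.04, -0.60 and -0.77 in numbers 001, 002 and 003.

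Library 001 differed from the other numbers for these genes. Ifit1, which binds viral RNA, was at 284.5, 97.2 and 86.5 CPM in co-culture at 24 h and 50.7, 26.9 and 21.2 CPM in co-culture at 0 h. It was at 268.5, 255.9 and 241.6 CPM in mono-culture at 24 h and 72.2, 43.6 and 39.5 CPM in mono-culture at 0 h. The co-culture level at 24 h was thus close to that of mono-culture in number 001 and below it in the other numbers (culture difference -0.24 ± 0.38, edgeR quasi-likelihood adjusted p = 0.873). Without number 001, 15 of the 30 genes were called lower for the culture difference, and without number 002 or 003, 0. Among all genes not set aside, 297 were called lower without number 001, and 0 without number 002 or 003.

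Ifit3, of the same family, was the 1 of the 30 that edgeR called between cultures at 24 h, where 2.66% of all genes were lower in co-culture and DESeq2 called 5 of the 30 (-0.89 ± 0.19, edgeR quasi-likelihood adjusted p = 0.0315). It was at 196.5, 85.2 and 81.7 CPM in co-culture at 24 h and 36.7, 32.6 and 28.9 CPM in co-culture at 0 h, and at 233.6, 199.1 and 199.3 CPM in mono-culture at 24 h and 60.1, 45.2 and 37.9 CPM in mono-culture at 0 h. The 24 h libraries of the cultures did not overlap. The ISRE motif was searched as GAAA, any 2 bases and GAAA on both strands, and 10 of 21 genes with an entry held it, against 2.98% of all windows and 3.26% of tested genes. The 180 bases before the start are printed for Ifit3 (chr19:34583349-34583528, plus strand), because it carries that difference, with the motif in capitals as it reads on this strand.
Ifit3: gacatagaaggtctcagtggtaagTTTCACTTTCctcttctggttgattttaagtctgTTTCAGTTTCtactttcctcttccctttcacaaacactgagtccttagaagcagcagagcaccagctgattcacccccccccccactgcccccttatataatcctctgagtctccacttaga

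**Figure D5:**
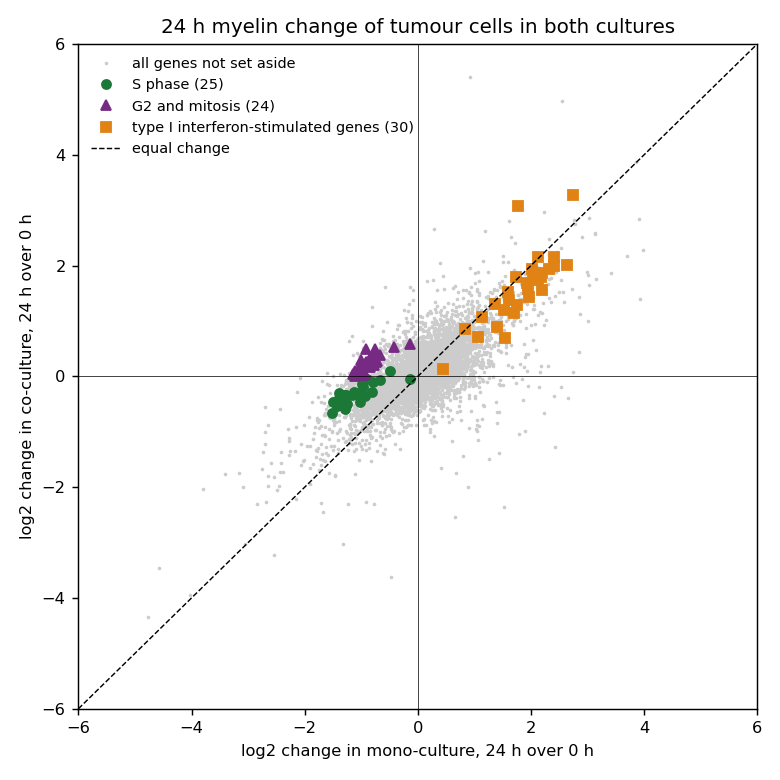
Log2 change from 0 h to 24 h in co-culture (vertical axis) against that in mono-culture (horizontal axis) for the 12944 genes not set aside (grey), with 25 S phase, 24 G2 and mitosis and 30 type I interferon-stimulated genes marked and a dashed line of equal change. S phase and mitosis genes lie above the line, left of 0, and of the 30 interferon-stimulated genes, at the upper right, 25 lie below the line and 5 above it.

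Few lipid genes were called for the culture difference. Of 13 LXR target genes 5 rose in co-culture (5.92% of all genes), and 8 rose and 1 fell in mono-culture (14.9% and 16.3% of all genes). Of the 13, 4 were set aside as macrophage genes. Macrophage markers also rose in mono-culture, 18 of 22 with a median of 2.08, and their part in the LXR counts was not tested. Abca1, the cholesterol exporter, was at 106.4, 99.5 and 118 CPM in co-culture at 24 h, against 64.4, 62.5 and 76.4 CPM in co-culture at 0 h. In mono-culture it was at 90.0, 117.8 and 119.9 CPM at 24 h and 81.4, 69.7 and 82.0 CPM at 0 h, and its culture difference was 0.18 ± 0.14 (edgeR quasi-likelihood, adjusted p = 0.667). The 1 called LXR target, Smpdl3a (-1.60 ± 0.26), was set aside as a macrophage gene, as was the exporter Abcg1 (-1.79 ± 0.44, adjusted p = 0.106).

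Of 21 cholesterol synthesis genes 7 fell in co-culture (6.65% of all genes), and 2 fell and 1 rose in mono-culture, shares below those of all genes (16.3% and 14.9%), with 0 called for the culture difference by edgeR's quasi-likelihood test, 2 at an unadjusted p under 0.05 and a median of -0.21. Hmgcs1, an early enzyme of the pathway, changed by -0.30 ± 0.09 in co-culture and -0.07 ± 0.09 in mono-culture, and Sqle, squalene epoxidase, by -0.30 ± 0.06 in co-culture and -0.11 ± 0.06 in mono-culture. Insig1, which retains the sterol sensor, had a difference of -0.33 ± 0.15, Fasn, fatty acid synthase, of 0.12 ± 0.13, Scd2, a desaturase, of -0.06 ± 0.12, and Plin2, a lipid droplet coat protein, of -0.03 ± 0.10, with an adjusted p of 0.418 or higher for each by edgeR's quasi-likelihood test.

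Of 24 lysosomal genes 15 rose in mono-culture, where 14.9% of all genes rose. In co-culture 0 were called by edgeR's quasi-likelihood test, with 2 higher and 2 lower at an unadjusted p under 0.05. Their median culture difference was -0.26, with all 24 below 0, 8 at an unadjusted p under 0.05 and 0 called by the same test. Hexa, a subunit of beta-hexosaminidase, was at 176, 171 and 188 CPM in co-culture at 24 h, against 210, 214 and 261 CPM in mono-culture at 24 h, and had a culture difference of -0.39 ± 0.11 (edgeR quasi-likelihood, adjusted p = 0.143). Macrophage markers moved the same way in these libraries (their median difference was -2.32 over 22 genes), and the part of macrophage RNA in the lysosomal genes was not tested.

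Among signals of the tumour cells to other cells, 4 of 11 chemokine genes were higher in co-culture than in mono-culture at 24 h (4.94% of all genes). Cxcl12, which attracts cells bearing CXCR4, was at 455.4, 437.6 and 441.8 CPM in co-culture at 24 h and 286.1, 318.9 and 287.6 CPM in mono-culture at 24 h, with no overlap (0.58 ± 0.06, edgeR quasi-likelihood adjusted p = 0.00312). At 0 h it was at 354.7 to 410.4 CPM in co-culture and 336.7 to 358.3 CPM in mono-culture, and the culture difference of 0.43 ± 0.09 just missed the threshold (adjusted p = 0.0502 by the same test).

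Ccl2, which recruits monocytes, was at 55.4, 95.9 and 103.9 CPM in co-culture at 24 h, against 16.9, 31.5 and 40.5 CPM in mono-culture at 24 h. It was also higher in co-culture at 0 h, by 0.95 against 1.55 at 24 h, and its culture difference was 0.60 ± 0.25 (edgeR quasi-likelihood, adjusted p = 0.4). Ccl7, a related chemokine, and Cxcl1, which attracts neutrophils, were higher in co-culture at 24 h by 1.33 and 2.04. Socs3, a feedback inhibitor of cytokine signalling, had a culture difference of 0.42 ± 0.37, and Osmr, the oncostatin M receptor, of -0.21 ± 0.17, while Osmr rose in both cultures.

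Genes of growth factor signalling were not called for the culture difference. Pdgfra, the alpha receptor of platelet-derived growth factor, was at 195.1, 183.1 and 176.3 CPM in co-culture at 24 h and 125.7, 119.3 and 117.8 CPM in co-culture at 0 h. It was at 141.8, 155.3 and 152.4 CPM in mono-culture at 24 h and 125.6, 122.3 and 122.2 CPM in mono-culture at 0 h. The co-culture libraries at 24 h lay above all others, and the culture difference was 0.33 ± 0.08 (edgeR quasi-likelihood, adjusted p = 0.121). Of 22 MAP kinase feedback genes 9 fell and 1 rose in co-culture (6.65% and 5.92% of all genes), and 15 fell and 2 rose in mono-culture (16.3% and 14.9%). Among them 0 were called for the culture difference by edgeR's quasi-likelihood test (7 at an unadjusted p under 0.05). Cd44, the hyaluronan receptor of the mesenchymal state, fell by 0.94 ± 0.17 in co-culture and by 1.18 ± 0.17 in mono-culture, and Egr1, an immediate early factor, by 1.39 ± 0.36 in co-culture and by 1.62 ± 0.36 in mono-culture. Hmox1, heme oxygenase, had a difference of -0.35 ± 0.27.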

How the data were processed

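For the 36 libraries the authors deposited raw gene counts, made on genome build mm10 per the submitters' processing notes. The aligner and the counter were not given in the sources used here. The 12 tumour cell libraries at 0 h and 24 h were fitted with edgeR 4.0.16 (R 4.3.3): filterByExpr, TMM normalisation, robust quasi-likelihood dispersions, 4 groups and the library number as a block, which left 6 residual degrees of freedom and 13352 of 29883 genes. Log2 differences carry standard errors, computed as the difference divided by the square root of F. Genes were set aside where their CPM (0.1 added) in mono-cultured macrophages at 0 h was over 20 times that in mono-cultured tumour cells at 0 h. The biological coefficient of variation was 0.0981 with the block and 0.224 without.

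Same-number residuals correlated at 0.353 or more between all groups, which is why the number was taken to pair libraries. Members, the 44 gene lists and the rule for named genes (up to 10 largest called differences per direction with a mean CPM of 10 and 1 sign in all numbers, up to 3 called members of a list with 3 or more called, and a fixed set) were chosen with earlier results of these data known. Where fewer than 5 genes were called in a set, all were named after their values were seen, as were list members outside the rule. Promoter sequences are RefSeq's on GRCm38.p6. The fit was tested on simulated data. Alternatives were DESeq2 1.42.0, RLE size factors, other filters, other libraries and other ways of setting genes aside. Some genes, Olig2 among them, are not reported here.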

Additional observations from a re-analysis of the deposited data

Results flagged for a closer look

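The genes called for the culture difference (edgeR quasi-likelihood, 24 h change in co-culture minus that in mono-culture) are the results in which the change between 0 h and 24 h differed between cultures by a test of the difference itself. The positive log2 differences were 1.71 for Adamts8, 1.38 for Acsbg1, 1.13 for Angptl4, 1.06 for Sema7a, 0.86 for Tubb3, 0.64 for Arhgap22, 0.63 for Loxl3, 0.61 for Ank, 0.59 for Sipa1l3, 0.59 for Plec, 0.58 for Bahcc1, 0.50 for AI506816 and 0.41 for Trp53. Each of them was positive in all 3 library numbers. The negative ones outside the macrophage genes were -0.76 for Lmo7, -0.50 for Rnf13 and -0.48 for Maoa, each negative in all 3 numbers. Having 1 sign in all numbers was part of the rule for named genes, so these signs are a description. Of all genes not set aside, 24.6% were positive and 17% negative in all 3 numbers.

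Among genes that macrophages express, the differences were -3.05 for Fcgr2b, -2.78 for Itgam, -2.58 for Fcer1g, -2.51 for Tyrobp, -2.12 for C1qa, -2.09 for C1qc and -2.06 for C1qb. Their levels in number 001 were at most 0.973 CPM in any of the 4 groups, and C1qa and Tyrobp had a positive difference in that number.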

How the results depend on the processing

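The count of 28 genes for the culture difference became 0 without the replicate block, 3 with all 18 tumour cell libraries in the fit, 3 with macrophage genes removed before the fit, 65 by DESeq2 and 61 with no low-count filter. With genes set aside by other rules, chosen after seeing the data, it was 44 (ratio over 0 h and 24 h), 17 (highest macrophage group) and 137 (none). RLE size factors gave 29 and non-robust dispersions 27. Leaving out libraries gave 0 to 886 genes for the culture difference, 3 to 3472 for the co-culture change, 663 to 4855 for the mono-culture change, 0 to 3689 between cultures at 24 h, 0 to 2410 between cultures at 0 h and 0 to 6 for the 6 h difference. The highest were without number 001 and the lowest without number 002 or 003, except at 6 h, where 6 came without mono-culture library 003 at 6 h. Single libraries left out gave 0 to 281 for the culture difference, and every one of the 12 except co-culture library 003 at 0 h moved it by over 1.5 times. Without the block the other counts were 81 (co-culture), 1206 (mono-culture), 5 (24 h) and 0 (0 h). For lists, the counts without the block were 0 for S phase genes and 0 for ribosome biogenesis genes between cultures at 24 h (15 and 19 with it), 9 for interferon-stimulated genes in co-culture (26 with it) and 0 for mitotic genes in mono-culture (7 with it). DESeq2 counted 17 mitotic genes higher in co-culture at 24 h, where edgeR counted 0. Among all genes not set aside, DESeq2 counted 895 higher at that time and edgeR 659. Between cultures at 0 h there were 54 genes with all 18 libraries, 19 with macrophage genes removed before the fit and 330 with none set aside. The cause of these shifts was not tested. Each named gene called for the culture difference kept its sign under each of its 21 or 22 alternatives, with adjusted p up to 1. With 3 libraries a group, small differences were not detectable at this depth and spread.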

Other observations

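Of 27 genes of the mesenchymal glioma state, 11 fell in co-culture (6.65% of all genes) and 17 in mono-culture (16.3%), 1 rose in each, and 0 were called for the culture difference by edgeR's quasi-likelihood test (6 at an unadjusted p under 0.05, positive in sign). Tagln2, an actin-binding protein, fell by 0.58 on the log2 scale in co-culture and by 0.84 in mono-culture and was higher in co-culture at 24 h by 0.65. The matrix protein gene Tnc fell by 1.77 in mono-culture and had a culture difference of 0.94 (adjusted p = 0.12). Of 22 immediate early genes 7 fell in co-culture and 12 in mono-culture, against the same shares of all genes. Of 28 glycolysis and hypoxia genes 8 were higher and 1 lower in co-culture than in mono-culture at 24 h (4.94% and 2.66% of all genes), where Hk2, the first kinase of the pathway, was higher by 0.65, and Mif, a cytokine counted with the hypoxia genes, by 0.47. Nes, the intermediate filament of progenitors, fell by 1.07 in mono-culture and was higher in co-culture at 24 h by 0.64. Across genes not set aside, the culture difference of numbers 002 and 003 correlated at 0.37, and that of number 001 at 0.15 with 002 and at 0.19 with 003, over 12944 genes that are not independent.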
